A study of Drosophila melanogaster with 12 samples.

Results

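LaminB depletion was compared with mock treatment in Drosophila Kc167 cells by the extent to which gene bodies lay inside called regions of RNA polymerase II (Pol II) in its serine 2-phosphorylated form (S2), which carries phosphate on the C-terminal domain. For each protein-coding gene of the dm6 genome, the share of its body, from gene start to gene end, that lay inside called regions was taken as its coverage, in percent, in 2 mock and 2 LaminB knockdown (LaminB KD) libraries. A gene was counted as above when both LaminB KD values exceeded both mock values, and as below when both were lower than both mock values. Of 13968 genes, 7601 had a region in at least 1 of the 4 lists, and these were the genes compared. Among them, 283 genes were above (3.72% of the genes compared), 2905 were below (38.2%) and 4413 were neither. These values chose the genes, so their counts and sizes are descriptions without a test.

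Kc167 is a female cell line of embryonic hemocyte origin. The lists came from chromatin immunoprecipitation and sequencing (ChIP-seq), with regions called against input DNA for each of 6 S2 libraries among 12 samples in the series. Mock cells were transfected with no RNA, LaminB KD cells with double-stranded RNA against LaminB, and AGO2 knockdown (AGO2 KD) cells with siRNA against Argonaute2, all in the same line and collected 3 days later. No group received a control RNA, so LaminB KD and mock differed both in the target and in the presence of double-stranded RNA, and these cannot be told apart. The study used LaminB depletion, beside that of AGO2, to ask whether effects on Pol II were specific to AGO2. Nothing in the labels says that replicates 1 and 2 came from separate cultures, so the spread between them may be technical. The exact permutation p-values below compare these 4 libraries only, and the smallest they can reach is 0.333.

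S2 phosphorylation marks Pol II that has left the promoter-proximal pause and is elongating through the gene, and its ChIP signal usually extends into the body and towards the 3′ end of transcribed genes. LaminB, encoded by Lam, is the B-type lamin of Drosophila and forms, with the A-type lamin, the filament network under the inner nuclear membrane. Chromatin in contact with this network is mostly silent, gene-poor and late-replicating. Elongating Pol II is found mainly on active genes away from it.

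The LaminB KD lists were shorter than the mock lists. They held 7309 and 7122 regions covering 10.47 and 10.32 Mb, against 7795 and 7957 regions covering 13.03 and 12.71 Mb in mock. The lists carry no read counts and the sequencing depth was unknown. Regions with a fold enrichment of 3 to 3.5 had a median −log10 p of 14.7 and 14.5 in mock and of 9.87 and 11.6 in LaminB KD, so that regions of the same fold were called with less evidence in both LaminB KD lists. The part of this difference in the results below was not tested. The lists also matched the labelled cell type in part. Of 14 hemocyte markers, 8 had a region in all 4 lists (srp, ush, Pxn, Col4a1, vkg, crq, Hml and Pvr) and 6 were at 0 throughout (Sr-CI, NimC1, He, lz, PPO1 and PPO2). The summed coverage of the 14 was 254 and 254 percentage points in mock and 213 and 174 in LaminB KD. No marker of muscle or fat body had a region, and 1 testis marker did in mock replicate 2 alone. Of 5 neuronal markers, elav had a region in all 4 lists, brp and para in some of them, and 2 in none. Coverage of elav ran from 6.83% to 8.91% and exceeded that of the hemocyte markers Col4a1, vkg and crq in each list.

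Lam itself (chr2L:5542480-5546642) was 85.5% and 83.1% covered in mock and 82.3% and 79.4% in LaminB KD. The groups did not overlap, with a gap of −0.82 points, less than the SD within either group (1.73 and 2.00 points). The double-stranded RNA acts on the messenger, so S2 coverage of Lam is no check of the knockdown. AGO2 (chr3L:15554113-15561042), the small RNA effector, had 55.7% and 33.2% in mock and 59.4% and 58.2% in LaminB KD. It was thus above, with mock replicate 1 close to the LaminB KD values and mock replicate 2 apart from all 3. When only the top-scoring 50% of regions of each list were used, the mean difference for AGO2 turned from 14.3 to −12.7 points. Socs36E (chr2L:18138675-18152417), an inhibitor of JAK-STAT signalling, had 69.1% and 64.7% in mock and 42.7% and 53.7% in LaminB KD, below without overlap. At equal covered lengths it had 51.0% and 50.2% in mock, the groups overlapped and its difference went from −18.7 to −2.41 points.

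The genes above were few and most of their gaps were small. The gap, taken between the lowest value of the higher group and the highest value of the lower group, had a median of 0.92 points among the 283 genes above and was under 1 point in 146 of them and under 5 points in 228. Median body coverage of these genes was 13.5% and 13.9% in mock and 20.3% and 18.9% in LaminB KD. It was 0.600% and 8.19% in AGO2 KD. Values of AGO2 KD are given side by side only, since both knockdowns share the mock libraries. The AGO2 KD lists were also shorter throughout, with 4122 and 6534 regions. They covered 3.07 and 7.20 Mb, against 13.03 and 12.71 Mb in mock. Their median −log10 p at a fold enrichment of 3 to 3.5 was 4.11 and 6.49. Mean body coverage of all genes compared was 14.1% and 30.4% in AGO2 KD. Whether a low AGO2 KD value at a gene goes beyond this was not tested. Only 14 genes (0.184%) were above by 25 points or more. At the other end stood mbl, a splicing regulator spread over 162828 bp, with 0.253% and 0.231% in mock and 0.295% and 0.254% in LaminB KD, the smallest gap inside the rule. The serotonin receptor gene 5-HT2B lay just outside it, with 6.78% and 6.53% in mock and 6.77% and 8.50% in LaminB KD.

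The largest gap upward was at CG18547, an uncharacterized gene of 1817 bp (chr3R:11978574-11980390, minus strand). Its body was 27.7% and 15.4% covered in mock and 84.0% and 83.5% in LaminB KD, while AGO2 KD had 11.67% and 13.04%. The 4 regions began at −126 and −116 bp from the gene start in mock and at −117 and −112 bp in LaminB KD, in a stretch shown here because each list placed the start of the region there. In mock the regions ended 503 and 278 bp into the gene, and in LaminB KD they ended at 1525 and 1516 bp. The mock regions were also among the strongest of their lists, with fold enrichments of 5.46 and 5.80 (rank 100 of 7795 and 67 of 7957). The longer LaminB KD regions averaged 3.61 and 3.31. The difference of 62.2 points was the same under all 4 other ways of choosing regions. The promoter sequence (chr3R:11980341-11980640, Release 6 of the RefSeq genome, minus strand, 250 bases before to 50 from the gene start) is given with a TATAAA match and a GAGAG match, here as its complement, in capitals.
CG18547: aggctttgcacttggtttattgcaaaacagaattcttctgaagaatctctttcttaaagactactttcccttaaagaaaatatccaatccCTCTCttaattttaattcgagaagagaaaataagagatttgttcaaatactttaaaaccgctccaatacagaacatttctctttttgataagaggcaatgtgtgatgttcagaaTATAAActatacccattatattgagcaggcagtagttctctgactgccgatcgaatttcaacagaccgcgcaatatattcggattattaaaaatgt

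Next to each other on 3R lay CG9312 and Cht5, which had no region over their bodies in either mock list. CG9312 (chr3R:13765756-13767103), uncharacterized, had 0% and 0% in mock and 88.4% and 51.2% in LaminB KD. Cht5 (chr3R:13767549-13770732), a chitinase that degrades chitin at the moult, had 0% and 0% in mock and 81.6% and 50.4% in LaminB KD. Both were at 0% in the 2 AGO2 KD libraries as well. The LaminB KD regions at Cht5 began 585 and 815 bp inside the gene, none covered its start, and their fold enrichments lay between 1.94 and 2.30. They stood near the threshold of the lists. With a q of 0.01 or less required, Cht5 had no region in any list and its difference of 66.0 points went to 0. Its promoter (chr3R:13767299-13767598, plus strand) is shown for contrast, with the TATAAA match and 2 GAGAG matches in capitals, since the regions of Cht5 left it uncovered.
Cht5: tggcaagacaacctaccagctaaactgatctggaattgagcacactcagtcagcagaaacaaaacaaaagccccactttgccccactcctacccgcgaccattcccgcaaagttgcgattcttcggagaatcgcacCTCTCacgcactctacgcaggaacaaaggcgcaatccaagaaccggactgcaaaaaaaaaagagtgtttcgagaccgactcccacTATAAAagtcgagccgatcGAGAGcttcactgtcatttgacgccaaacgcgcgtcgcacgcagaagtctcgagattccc

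Other genes above had regions in mock that were longer in LaminB KD. CG7668 had 38.7% and 10.3% in mock and 86.9% and 86.9% in LaminB KD. In LaminB KD a single region ran from −1685 or −1684 bp relative to its start to 1822 or 1824 bp inside it. Mock replicate 1 instead had 2 separate regions ending at 177 bp and resuming at 1167 bp. MED31, a subunit of the Mediator complex, had 25.1% and 49.9% in mock and 100% and 100% in LaminB KD, and shares its start and first 1330 bp with slx1, so the pair cannot be told apart. In the same way mock replicate 2 had 2 regions at MED31, ending at 220 bp and resuming at 887 bp, where each LaminB KD list had 1. The clock gene cyc, whose product pairs with CLOCK in the circadian activator, had 36.7% and 32.3% in mock and 74.3% and 72.8% in LaminB KD.

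Further genes with large upward gaps are uncharacterized. CG10222 had 13.5% and 23.1% against 63.9% and 59.2%. CG32625 had 21.6% and 0% against 65.6% and 77.8%. In both the replicates of a group were closer to each other than to the other group. CG33107 had 3.80% and 1.46% in mock and 40.3% and 100% in LaminB KD, where 1 library reached the end of the gene and the other did not.

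**Figure D1:**
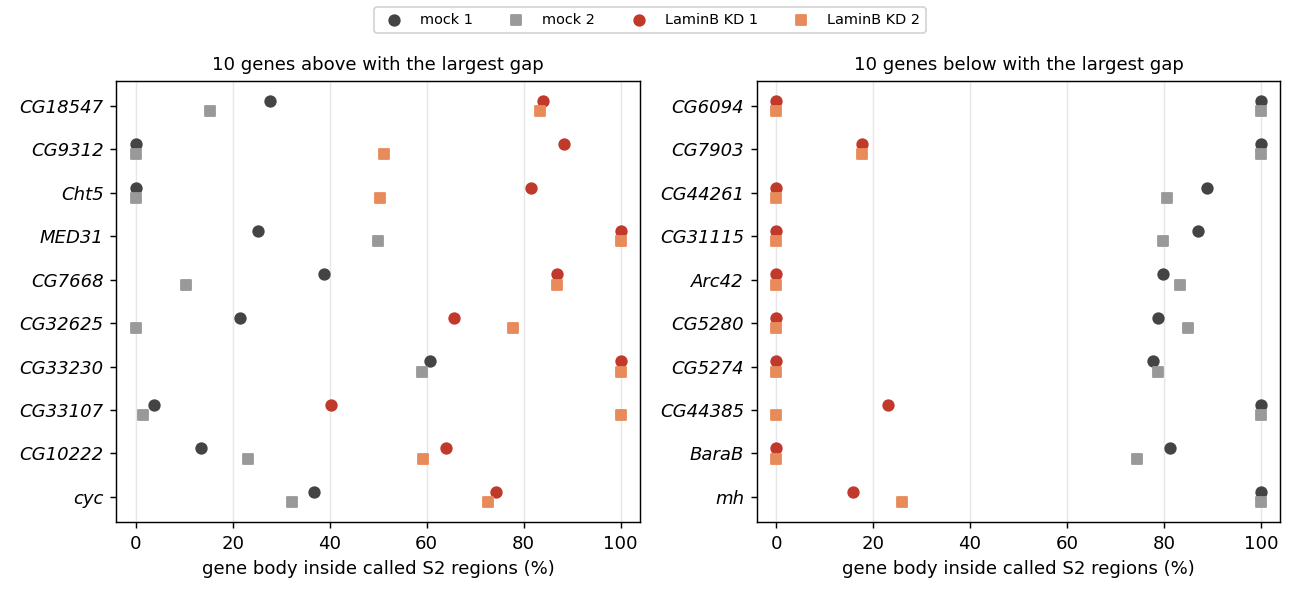
Percent of gene body inside called S2 regions in the 2 mock (dark and light grey) and 2 LaminB KD (red and orange) libraries, for the 10 genes above and the 10 genes below with the largest gap. Each point is 1 library, and the genes were chosen by these values: CG18547 stands at 27.7% and 15.4% in mock and 84.0% and 83.5% in LaminB KD, and CG6094 at 100% in mock and 0% in LaminB KD.

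Genes below outnumbered genes above, and their differences were larger. Their median body coverage was 45.5% and 46.1% in mock and 25.2% and 25.0% in LaminB KD, with 1.85% and 12.9% in AGO2 KD. The gap had a median of −3.27 points, was under 1 point in size in 795 genes and under 5 points in 1700, and reached 25 points in 237 genes (3.12%). The smallest gap inside the rule was at Fili, with 0.317% and 0.302% in mock and 0.300% and 0.280% in LaminB KD. Just outside lay GEFmeso, with 0.529% and 0.519% in mock and 0.520% and 0.458% in LaminB KD.

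The balance between genes above and below depended on how regions were chosen. When the lowest-scoring regions of each list were dropped until all 4 lists covered the same length, 10.3 Mb, 1069 genes were above and 1621 below, and 180 were above and 119 below by 25 points or more. This kept 4541 and 4862 mock regions and 6967 and 7122 LaminB KD regions. The setting removes the difference in covered length between the lists, so it is no test of that difference. Of the 283 genes above, 276 were above in this setting too, among them all 14 with a gap of 25 points or more. Of the 2905 genes below, 1613 stayed below, 918 overlapped and 374 were above. Of the 237 with a gap of 25 points or more, 142 stayed below and 22 were above. In the top-scoring 50% of regions, 158 of the 283 genes stayed above, 6 of the 14 with a gap of 25 points or more among them, and 1564 of the 2905 stayed below. Those that lost the call included MED31, slx1, CG9312, Cht5, CG33107, CG32625, PGRP-SA, mkg-p, Tpt, Bub1, Dronc and AGO2.

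The largest gap downward was at CG6094, an uncharacterized gene of 952 bp (chr2L:10507081-10508032, plus strand). It was 100% covered in both mock lists, 0% in both LaminB KD lists and 0% in both AGO2 KD lists. A region was present next to it in every list. In mock it ran from −1059 or −1035 bp relative to the gene start to 1321 or 1750 bp beyond it, past the gene end, with a fold enrichment of 4.02 and 3.70. In LaminB KD it began at −981 or −1074 bp and ended at −151 or −48 bp, before the gene, at a fold enrichment of 6.56 and 5.08. The difference was −100 points under all 4 other ways of choosing regions. Its body overlaps the end of the convergent gene CG7384, which had 21.0% and 37.5% in mock and 0% and 0% in LaminB KD. The promoter of CG6094 (chr2L:10506831-10507130, plus strand), where the LaminB KD regions ended, is given with the motif 1 core GGTCACAC and an E-box CAGCTG in capitals.
CG6094: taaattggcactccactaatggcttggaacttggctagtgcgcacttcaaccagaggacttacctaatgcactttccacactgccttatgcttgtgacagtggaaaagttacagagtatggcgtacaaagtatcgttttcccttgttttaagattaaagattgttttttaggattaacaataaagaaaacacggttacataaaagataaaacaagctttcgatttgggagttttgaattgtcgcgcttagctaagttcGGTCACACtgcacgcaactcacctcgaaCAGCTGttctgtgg

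**Figure D2:**
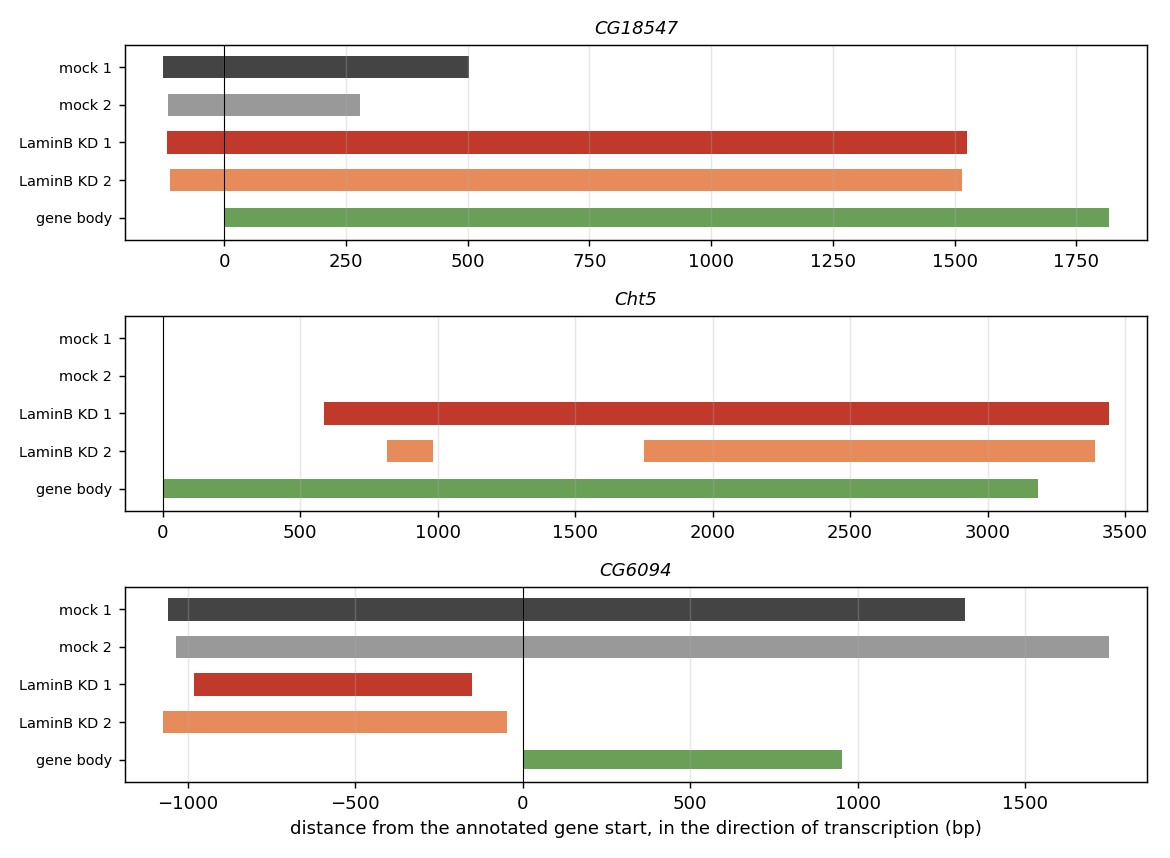
Called S2 regions at CG18547, Cht5 and CG6094 by distance from the annotated gene start in bp, in the direction of transcription, with 1 row per library and the gene body in green. Regions at CG18547 ended at 503 and 278 bp in mock and at 1525 and 1516 bp in LaminB KD, Cht5 had regions in LaminB KD alone, and at CG6094 the LaminB KD regions ended before the gene, at −151 and −48 bp.

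A like pattern of a body region in mock and a start region in LaminB KD was present at mh (maternal haploid), which encodes a DNA-repair protease of the Spartan family. It was 100% covered in both mock lists and 15.8% and 26.0% covered in LaminB KD. The single mock region began at −627 or −718 bp from the gene start and ran past its end. In LaminB KD, the part at the start ended 409 or 407 bp into the gene. These regions were weak in mock, with fold enrichments of 2.25 and 2.19, and in the top-scoring 50% of regions mh had none in any list. CG7903 behaved alike, with 100% and 100% in mock and 17.8% and 17.8% in LaminB KD, in regions of fold 2.18 and 2.48 in mock. The promoter of mh (chrX:15475351-15475650, minus strand), held by the start regions, is shown with the DNA replication-related element TATCGATA, a motif 1 core and a TATAAA match on the other strand in capitals.
mh: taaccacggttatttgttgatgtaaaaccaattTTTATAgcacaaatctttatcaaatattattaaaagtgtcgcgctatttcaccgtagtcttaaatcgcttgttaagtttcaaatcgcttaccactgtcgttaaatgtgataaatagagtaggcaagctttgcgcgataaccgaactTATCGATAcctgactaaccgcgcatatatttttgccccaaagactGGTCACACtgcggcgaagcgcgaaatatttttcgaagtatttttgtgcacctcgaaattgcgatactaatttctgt

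Other genes below had no region left over their bodies in LaminB KD. Arc42, annotated by RefSeq as activator-recruited cofactor subunit 42, had 79.8% and 83.3% in mock and 0% and 0% in LaminB KD, in mock regions of fold 2.12 and 2.20 that began 318 and 263 bp inside the gene. CG31115 had 87.0% and 79.8% in mock and 0% and 0% in LaminB KD. Its mock regions were stronger, with fold 3.77 and 3.28, and were 3867 and 3731 bp wide, so that they continued past the gene, whose body overlaps Ythdf. CG5280 (78.9% and 85.1%) and CG5274 (77.8% and 78.8%) were also at 0% in both LaminB KD lists. So were CG44261 (88.9% and 80.7%) and the baramicin gene BaraB (81.3% and 74.5%). These 4 were at 0% in all 4 lists once the covered lengths were equal, a setting that drops many more mock than LaminB KD regions. With a q of 0.01 or less, BaraB kept both mock values. CG5280, CG5274 and CG44261 kept that of mock replicate 1 alone, and their groups no longer separated. CG44385, whose body overlaps Klp10A, had 100% and 100% in mock and 23.1% and 0% in LaminB KD, and its difference turned from −88.4 to 11.6 points with equal covered lengths. Of the 10 genes with the largest downward gaps, CG6094, CG7903, CG31115 and mh kept their values there.

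Few of these changes were the appearance or disappearance of a whole region. A region was counted as shared if it overlapped any region of the other group, also outside the gene. Cht5, Arc42 and CG31115 thus count as shared, though 1 group had 0% of their bodies. Of the 14 genes above by 25 points or more, 13 lay in LaminB KD regions that also overlapped a mock region, with CG9312 the exception. Of the 237 genes below by as much, 220 lay in mock regions that also overlapped a LaminB KD region. A stricter count took genes with a region in both libraries of 1 group and in neither of the other. By it 12 genes were gained (0.158%) and 175 were lost (2.30%). Of the 12 gained genes, 10 had regions that overlapped no mock region. They included the gluconeogenic gene Pepck2 (2.70% and 1.78% of the body), the neuronal gene cpx (0.923% and 1.30%), the GABA receptor subunit gene Lcch3 (13.1% and 9.99%) and CG40198 (37.6% and 9.23%). Of the 175 lost genes, 112 had such regions of 1 group alone. At equal covered lengths the counts were 374 gained and 31 lost.

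Each body was divided into 3 parts of equal length, a start, a middle and an end part. The median body coverage of the genes compared was 46.2% and 48.3% in mock and 33.7% and 34.3% in LaminB KD. This difference of library medians was −13.2 points (pooled SD 1.07) and turned to 3.31 points when all lists covered the same length. It is not the change of a typical gene. The median of the differences per gene was −1.91 points, and 0 when covered lengths were equal. Over the same genes, the mean coverage of the start part was 59.1% and 59.2% in mock and 53.4% and 54.3% in LaminB KD, a difference of −5.27 points. The end part had 45.9% and 45.0% in mock and 37.3% and 36.9% in LaminB KD, a difference of −8.32 points. In all 3 library summaries (median, start part and end part) the groups did not overlap. Each difference was larger than the pooled SD (0.427 and 0.485 points for the parts). With 2 libraries a group, however, the exact two-sided permutation test gave p = 0.333 for each, the smallest it can give. The difference of the start part turned to 1.20 points when covered lengths were equal, and that of the end part was −1.10 points.

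In the 283 genes above, the mean coverage of the start part was 34.8% and 35.4% in mock and 45.1% and 45.5% in LaminB KD, and that of the middle part 15.6% and 15.6% in mock and 26.2% and 24.8% in LaminB KD. In the 29 genes above by 10 points or more, the mean of the middle part was 18.7% and 24.3% in mock and 80.9% and 78.9% in LaminB KD, while the end part went from 27.3% and 29.6% to 44.5% and 49.7%. In the 237 genes below by 25 points or more, the start part went from 83.6% and 79.9% to 50.8% and 51.1%. Their middle part went from 79.6% and 80.7% to 21.5% and 22.0%, and their end part from 72.1% and 69.9% to 22.0% and 21.2%. In finer bins over genes of at least 2 kb, the first bin of genes below had 72.4% and 71.0% in mock and 63.6% and 63.2% in LaminB KD, and bin 10 of 20 had 34.7% and 35.1% against 22.0% and 21.3%.

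**Figure D3:**
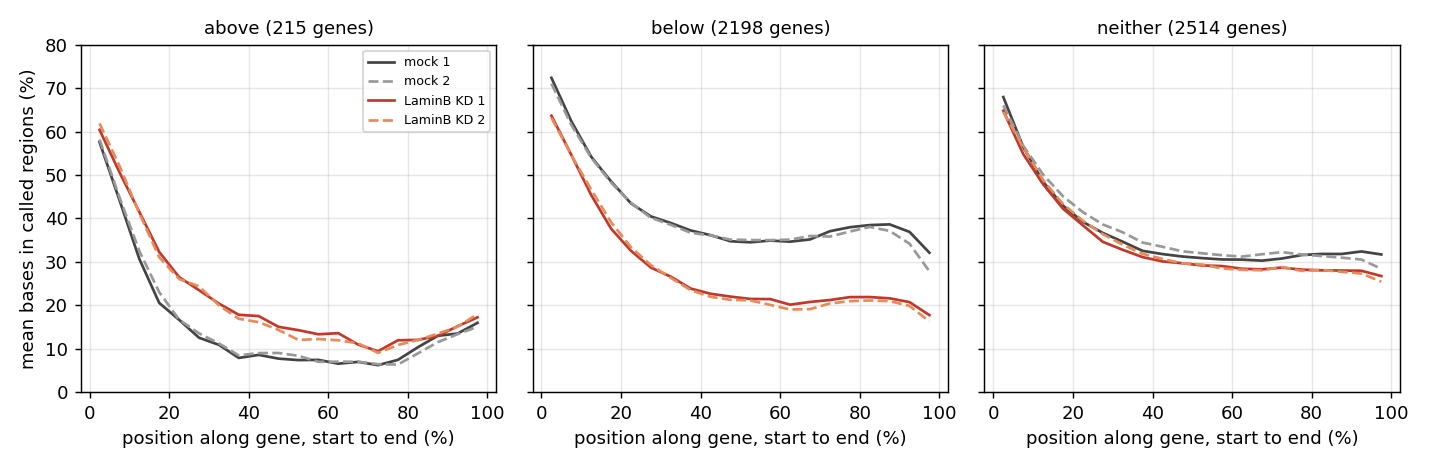
Mean percent of bases inside called S2 regions in 20 bins from gene start to gene end, for genes of at least 2 kb that were above, below or neither, with 1 line per library (mock in grey, LaminB KD in red and orange, replicate 2 dashed). Genes below had 34.7% and 35.1% in bin 10 in mock and 22.0% and 21.3% in LaminB KD, and the genes were chosen by coverage of the same bodies.

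The shares differed with coverage in mock. Of 1495 genes fully covered in both mock lists, which could not be above, 185 were below. The share below was 35.6% among the 2645 genes covered up to 25%, and 53.9% at its highest, among the 1169 genes covered from 75% to under 100%. The share above fell over the same classes from 6.84% to 1.28%. Among the 61 genes without mock coverage 12 were above. These were compared only because of a LaminB KD region and could not be below. Longer genes were called more often on both sides. The shares went from 2.31% above and 24.4% below in the shortest 25% of genes to 5.16% and 49.2% in the longest 25%. Median mock coverage fell from 96.2% to 7.58% over these classes. Ties at full coverage cannot be called, while a gap of any size counts. The median difference was −0.42 points in the shortest 25%, −4.18 in the third and −1.09 in the longest. Genes that overlapped another gene and genes that did not were above in 3.56% and 3.93% and below in 38.2% and 38.3%.

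**Figure D4:**
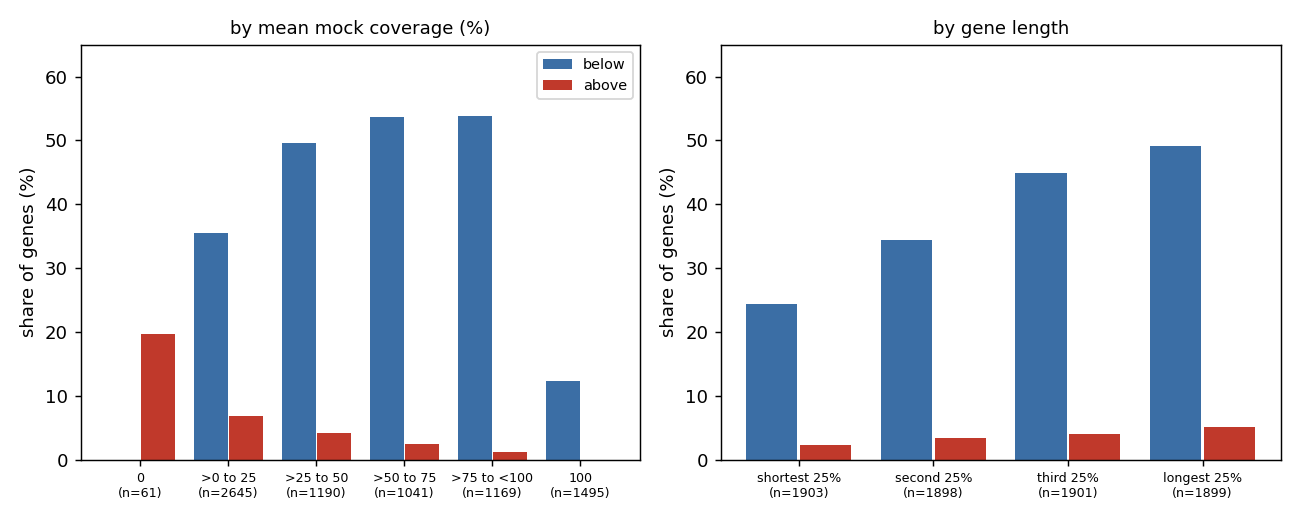
Share of genes above (red) and below (blue) by mean body coverage in mock in percent and by gene length, in 4 classes of like size, with the number of genes in each class. The share below rises from 35.6% to 53.9% with mock coverage and is 12.4% among genes fully covered in mock. Both shares rise with length, while median mock coverage falls.

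Genes of both directions lay on every arm. The share of genes below lay between 35.4% on 2R and 42.9% on chromosome 4, where 18 of 42 genes were below, and the share above between 3.24% on 2L and 4.76% on chromosome 4. The bases covered in LaminB KD were 77.0% of those in mock on chromosome 4 and 80.1% to 81.3% on the other arms. Chromosome 4 had 0.100 and 0.0785 Mb in mock and 0.0722 and 0.0654 Mb in LaminB KD. Its mock replicate 2 lay closer to both LaminB KD values than to mock replicate 1, so its lower share is not set apart. On all 6 arms both LaminB KD values lay below both mock values, with an exact permutation p of 0.333 on each and after adjustment over the arms. This held for 0 arms when the lists covered equal lengths. Lists of equal total length cannot be lower on all arms together, so that setting is no test of the arms. In 115 windows of 1 Mb with at least 20 genes, the share above ran from 0% to 9.84% with a median of 3.33%, and the share below from 22.6% to 60.0% with a median of 38.8%. The highest share above was in the window from 4 to 5 Mb of 3R, near its centromeric end, with 6 of 61 genes (CG40198, CG14636, cpx, CG32944, MED31 and slx1).

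Neighbouring genes above came at most in pairs, of which there were 25, and the pairs with the largest gaps were CG9312 with Cht5, MED31 with slx1, and mkg-p with Tpt. The last pair has identical coordinates, and its 35.9% and 32.3% in mock and 62.7% and 45.2% in LaminB KD are 1 measurement. Genes below, far more numerous at 2905 against 283, formed longer runs, in 404 pairs, 150 runs of 3, 58 of 4, 9 of 5, 4 of 6 and 4 of 7. Whether these runs were longer than the numbers of genes alone would give was not tested. A run of 7 on 3R held only pre-mod(mdg4) entries, all 7 of which overlap another gene. The longest run held 8 genes over chrX:10760048-10847092 (Tango5, Atg8a, BTBD9, CG15211, Ant2, sesB, Imp and sbr). Within it Atg8a, which marks autophagosomes, went from 100% and 100% to 82.1% and 80.2%. The mRNA export receptor sbr went from 32.2% and 28.8% to 16.4% and 11.97%. The overlapping ADP/ATP carrier genes sesB and Ant2 changed least, with sesB at 87.3% and 86.4% in mock and 85.5% and 86.2% in LaminB KD. At equal covered lengths the differences of Tango5, Imp and sbr were positive (10.2, 8.05 and 5.60 points), so the run did not hold as a whole.

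Functional groups were described by their counts beside the 3.72% and 38.2% of all genes compared, whose median difference was −1.91 points. At equal covered lengths the counts over all genes were 1069 above and 1621 below of 7297, with a median difference of 0. List counts in that setting are to be read beside these. Of 82 cytoplasmic ribosomal protein genes, 70 were fully covered in all 4 lists, 3 were below and 2 above. A fully covered gene cannot be above, and coverage does not measure the level of S2 within a region. RpS5a went from 86.8% and 85.4% to 80.6% and 83.6%, and RpS3A on chromosome 4 from 62.1% and 62.9% to 63.4% and 64.4%. Of 32 proteasome genes 3 were below and 1 above, and of 31 heat shock and chaperone genes 4 and 1. Of these genes, 22 and 19 were fully covered in all 4 lists. The small heat shock gene Hsp67Bc had 45.6% and 56.9% in mock and 67.0% and 70.9% in LaminB KD.

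Among mitochondrial genes, those below were 17 of 75 ribosomal protein genes and 22 of 73 genes of the respiratory chain and ATP synthase. None of either was above. Of them, 35 and 33 were fully covered in all 4 lists and could not be called. mRpL54, of the large mitochondrial ribosomal subunit, had 85.5% and 97.0% in mock and 22.3% and 0% in LaminB KD. SdhA, the flavoprotein subunit of succinate dehydrogenase, had 68.0% and 87.2% in mock and 23.6% and 39.9% in LaminB KD, and its groups overlapped at equal covered lengths and with a q of 0.01 or less. Among 13 glycolysis genes 6 were below, with Ldh, lactate dehydrogenase, at 98.8% and 67.8% in mock and 47.9% and 47.8% in LaminB KD.

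Of 22 pausing and elongation factor genes 11 were below and 1 above, with a median difference of −10.9 points. Cdk12, a kinase for S2 of Pol II, had 76.2% and 86.6% in mock and 17.9% and 43.1% in LaminB KD. Its partner cyclin CycK was the gene above, at 24.9% and 32.7% in mock and 32.9% and 33.7% in LaminB KD. Equal covered lengths left 7 below and 5 above, and Cdk12 turned to 0% and 0% in mock against 11.5% and 43.1%. Of 23 SR and hnRNP splicing factor genes 12 were below and none above, and 9 and 3 at equal covered lengths. Srrm1, an SR-related splicing coactivator, had 99.1% and 98.9% in mock, in 1 region over nearly the whole gene, and 27.9% and 47.8% in LaminB KD, in 1 region at the start and a short one near the end. Its values were the same with equal covered lengths. Of 13 Pol II subunit genes 5 were below, a share close to that of all genes.

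Chromatin genes of the Polycomb and Trithorax groups, which maintain silent and active states of developmental genes, were below in 14 of 23. Their median difference was −2.07 points, near the −1.91 of all genes. Median mock coverage of this list was 58.4% and 53.2%. Of all genes covered from 50% to 75% in mock, 53.6% were below. Su(z)12, a subunit of the Polycomb repressive complex that methylates histone H3, had 62.3% and 66.4% in mock and 24.1% and 15.7% in LaminB KD. The others below were Asx, E(z), Pcl, Sfmbt, Su(z)2, ash1, ash2, brm, kis, mor, osa, ph-d and ph-p. With equal covered lengths 4 were below and 4 above, while Su(z)12 stayed below by a difference of −48.1 points. Of 14 insulator protein genes 5 were below. ZIPIC had 100% and 96.3% in mock and 31.8% and 81.1% in LaminB KD, and turned to 0% and 0% in mock with equal covered lengths.

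Genes of the nuclear periphery were below in shares near that of all genes. Of 13 genes of the lamina and envelope 5 were below (kuk, klar, Lam, Msp300 and LBR) and none above. The gene kuk, for a farnesylated nuclear envelope protein, had 48.9% and 46.3% in mock and 29.0% and 38.1% in LaminB KD, and a difference of 11.8 points in the other direction with equal covered lengths. LBR, the lamin B receptor, had 89.4% and 89.6% in mock and 89.3% and 89.3% in LaminB KD. Of 29 nucleoporin genes 10 were below and 9 fully covered in all lists. Nup54, of the central channel of the pore, had 65.2% and 51.4% in mock and 10.7% and 10.9% in LaminB KD, and 0% and 0% in mock with equal covered lengths.

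JAK-STAT genes were below in 8 of 11 (Socs36E, Su(var)2-10, hop, Stat92E, chinmo, et, Ptp61F and zfh1), and hemocyte genes in 11 of 16 (LanB2, Hml, srp, Pvr, ush, crq, Pxn, LanA, LanB1, Tig and peb). The median differences were −5.55 and −2.79 points, against −1.91 over all genes. Su(var)2-10, which encodes the PIAS SUMO ligase that restrains STAT, had 80.7% and 68.7% in mock and 51.1% and 55.3% in LaminB KD. LanB2, a laminin chain of the basement membrane, had 67.0% and 75.8% in mock and 44.3% and 13.2% in LaminB KD. With equal covered lengths the counts were 4 below and 2 above for JAK-STAT genes and 6 and 2 for hemocyte genes, and both named genes turned to positive differences (2.90 and 15.5 points). Among other signalling lists, BMP genes were below in 9 of 14, receptor tyrosine kinase genes in 11 of 21, ecdysone response genes in 9 of 19, Notch genes in 6 of 14 and JNK genes in 4 of 13. In the same order, the median differences were −1.49, −3.14, −0.51, −0.50 and −1.55 points. The balance turned at equal covered lengths for receptor tyrosine kinase genes (2 below and 5 above) and ecdysone response genes (5 and 8). It also turned for Notch genes (0 and 4). BMP genes had 4 and 2 and JNK genes 1 and 1. All genes moved the same way, to 1621 below and 1069 above of 7297, from 2905 and 283 of 7601. The receptor tyrosine kinase list held kek1, an inhibitor of the EGF receptor, with 10.8% and 13.3% in mock and 22.9% and 25.0% in LaminB KD. Cell cycle genes were below in 19 of 38 and above in 1, and in 12 and 3 at equal covered lengths. The gene above was the spindle checkpoint kinase gene Bub1, with 15.8% and 26.2% in mock and 31.1% and 30.0% in LaminB KD. The mitotic kinase gene polo had 93.1% and 100% in mock and 72.4% and 59.9% in LaminB KD.

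Of 26 Toll and Imd immunity genes 3 were above and 5 below, with a median difference of −0.11 points that turned to 1.01 points at equal covered lengths. PGRP-SA, a receptor for bacterial peptidoglycan upstream of Toll, had 19.9% and 23.6% in mock and 49.7% and 54.4% in LaminB KD, with 0% and 16.6% in AGO2 KD. All 4 of its regions lay inside the gene, away from its start, beginning 827 and 754 bp from the start in mock and 478 and 409 bp in LaminB KD. PGRP-SD had 20.4% and 25.4% in mock and 64.4% and 30.0% in LaminB KD, and cact, the inhibitor of the Toll transcription factors, 13.9% and 14.2% in mock and 17.7% and 16.3% in LaminB KD. Diap2, a ubiquitin ligase of the Imd pathway, went the other way, from 71.8% and 64.2% to 42.7% and 23.3%. Among 13 apoptosis genes 2 were above and 3 below. The initiator caspase gene Dronc had 34.1% and 31.2% in mock and 41.2% and 41.8% in LaminB KD, but its groups overlapped under all 4 other ways of choosing regions. The tumour suppressor gene p53 had 60.6% and 59.2% in mock and 61.4% and 64.4% in LaminB KD.

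Genes of tissues other than hemocytes were mostly without regions. Of 154 cuticle and chitin genes 12 had a region, with 2 above (Cht5 and Cht2) and 5 below, and of 231 chemoreceptor and odorant-binding genes 25 had one, with 2 above and 10 below. Of 33 neuronal genes 14 had a region, with 2 above and 2 below. The receptor subunit gene nAChRalpha1 was among those above, from 1.64% and 1.12% to 2.07% and 2.32%. Of 116 histone genes 4 had a region. All 4 were fully covered in every list, so none could be called above or below. The study's methods removed multimapping reads, and the part of this in histone genes without a region was not tested.

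**Figure D5:**
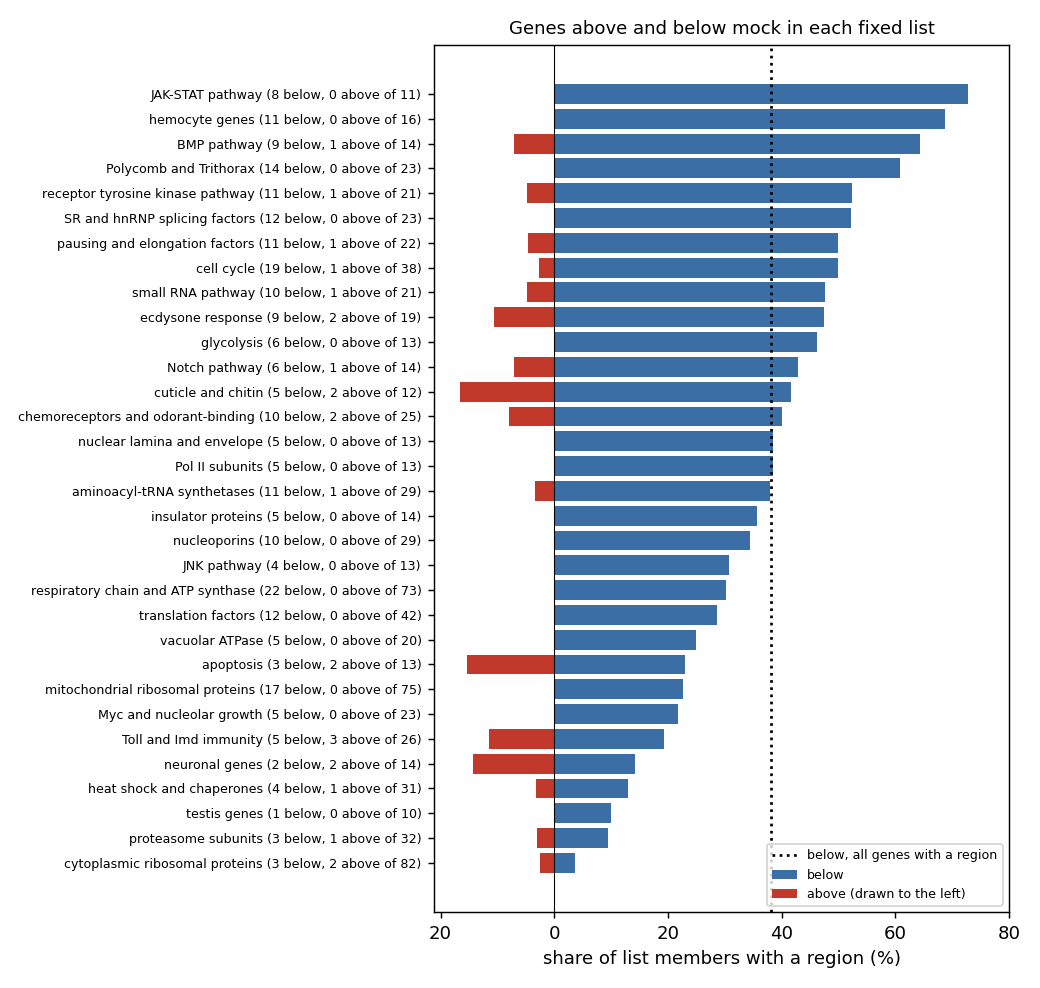
Share of genes below (blue, to the right) and above (red, to the left) in each gene list with at least 10 genes compared, in percent of those genes, with the counts beside each list and the 38.2% of all genes compared as a dotted line. JAK-STAT genes (8 of 11 below) and hemocyte genes (11 of 16) lie farthest right and cytoplasmic ribosomal protein genes (3 of 82) farthest left.

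Promoters were searched for 5 motifs, each on both strands, in the 250 bases before and 50 from the gene start. The motif 1 core GGTCACAC was in 8.13% of promoters of genes above, 14.1% of genes below and 13.1% of the others, against 7.69% of all 13968 promoters. GAGAG was in 33.9%, 28.9% and 27.2% in the same order, and in 29.7% of all. The DNA replication-related element TATCGATA was in 13.4%, 14.7% and 15.7%, and in 9.36% of all. TATAAA was in 47.3%, 43.1% and 45.4%, and CAGCTG in 20.8%, 20.8% and 22.3%. A match describes letters in the window and not binding.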

How the data were processed

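S2 ChIP-seq lists of 2 mock, 2 LaminB KD and 2 AGO2 KD libraries were used. The submitters' processing notes name cutadapt 1.10, Bowtie2, Picard 2.11.0, MACS2 2.1.1.20160309 and dm6. Per the study's methods, the authors called broad regions against input for each replicate. Which inputs entered each call is not given in the sources used here. The score, the fold enrichment (a ratio of IP to background) and the −log10 p and −log10 q values were deposited by the authors per region. No read counts are in the lists, so depth is unknown and the read-based differential test of the study was not run. No input library was used by itself.

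Body coverage was computed in Python 3.11.15 with numpy 2.4.6 and pandas 2.3.3 over Ensembl release 115 genes (BDGP 6.54), and figures were drawn with matplotlib 3.10.9. Library summaries were compared by exact two-sided permutation tests (scipy 1.17.1). Promoters were read from the Release 6 RefSeq genome. The code was tested on simulated data. Named were Lam, AGO2 and Socs36E, the 10 largest gaps in each direction, the extreme members of each of 37 lists, the longest runs and the genes nearest the rule's edge. Not all of these are described in the text, and 1 item is not reported here. Other genes given by name, or with values, were chosen after their values were seen. The members and lists were chosen with earlier results of these data known. Alternatives were the top-scoring 50% of regions, a q of 0.01 or less, equal numbers of regions, equal covered length, genes without overlap, other margins, each replicate left out and a replicate block.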

Additional observations from a re-analysis of the deposited data

How the results depend on the processing

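Equal covered length gave 1069 genes above and 1621 below, 180 above and 119 below by 25 points, 374 gained and 31 lost. The difference of the library medians turned from −13.2 to 3.31 points and that of the start part of genes from −5.27 to 1.20 points, that of the end part went from −8.32 to −1.10 points, and 0 of 6 arms had lower LaminB KD values. CG44385 turned to 11.6 points. It keeps more of the weaker LaminB KD regions than of mock by construction. The top-scoring 50% of regions gave 1902 genes below and 265 lost, turned AGO2 to −12.7 points and took 11 of the genes with the largest gaps to a difference of 0. Genes overlapping no other gene, a smaller set, numbered 133 above, 1296 below, 99 below by 25 points, 7 gained and 73 lost. A margin of 10 points gave 29 above and 807 below, and 1 of 50 points gave 4 and 38. Equal numbers of regions and a q of 0.01 or less moved none of the counts over all genes by over 1.5 times and turned none of the library summaries, but moved counts within some small lists, such as Notch genes below, from 6 to 4 with the q and to 3 with equal numbers.

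Leaving out 1 library, which leaves 1 in its group and no test, gave 701 to 865 genes above, 3796 to 3982 below, 34 to 44 above and 483 to 509 below by 25 points, 34 to 39 gained and 258 to 317 lost. Every count of genes above was over 1.5 times the 283 of all 4 libraries. It was 761 without mock replicate 1, 764 without mock replicate 2, 865 without LaminB KD replicate 1 and 701 without LaminB KD replicate 2. With the replicate number as a block, 455 genes were above and 3505 below in both pairs, and no other count moved by over 1.5 times. The difference between replicates 1 and 2 in mock correlated with that in LaminB KD at r = 0.0572 over 7601 genes, which are not independent, and the numbers share no stated origin, so they were not taken as pairs. With 2 libraries a group and an unknown depth, no difference here can pass 0.05 and an uncovered gene is not shown to lack S2 Pol II.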
